A study of Mus musculus with 12 samples.

Results

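The mitochondrial carriers of the SLC25 family, with the uncoupling proteins Ucp1, Ucp2 and Ucp3, were followed in 3T3-L1 cells through the first hours of hormonal induction of adipogenesis. Members were taken by gene symbol: every non-control probe was kept whose accession belongs to a gene named Slc25a with a number, or to one of the Ucp genes. This gave 68 probes of 48 genes among 41174 probes of 32301 genes (a gene without a symbol counts by its accession). Of the 50 family genes in the RefSeq gene table, Slc25a34 and Slc25a53 had no probe. On the array 33 members had 1 probe, 10 had 2 and 5 had 3.

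3T3-L1 is a mouse embryonic fibroblast line that behaves as a preadipocyte and can be induced to become an adipocyte. Confluent cells were collected without induction (0 h) or after 6 h in a mixture of isobutylmethylxanthine (0.5 mM), dexamethasone (1 µM) and insulin (5 µg/ml), and the serum of the medium also changed from newborn to fetal bovine serum at induction, so hormones and serum cannot be told apart. Each lysate was run on a sucrose gradient, and RNA of fractions 5 to 7 was pooled as non-polysomal and RNA of fractions 9 to 11 as polysomal. The 4 groups of time and fraction had 3 replicates each, given as biological replicates in the study's methods, on 12 single-colour Agilent arrays. No genotype differed between the groups, and all RNA came from this single line.

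Carriers of this family sit, with few exceptions, in the inner mitochondrial membrane, where each binds its substrate on one face, closes around it and opens to the other face. They are encoded in the nucleus and made in the cytosol, so their synthesis depends on ribosomes that load their mRNAs. ADP/ATP carriers exchange ATP made in the matrix for cytosolic ADP, the phosphate carrier supplies phosphate for ATP synthesis, and others move citrate, amino acids, cofactors and iron. In fat cells the citrate carrier exports acetyl units for lipid synthesis, and Ucp1 is the heat-producing protein of brown fat. An mRNA that carries many ribosomes sediments into the polysomal fractions, and an mRNA without ribosomes stays near the top.

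The change of an mRNA between fractions is given as the M-value, the polysomal change minus the non-polysomal change from 0 h to 6 h on the log2 scale, so that a positive value is a shift towards the polysomal pool. Values are log2 normalised signals, that is, background-subtracted intensities after an offset per array from the spiked-in control RNA. Signals of different probes are not compared, since a probe's brightness is its own. A gene with several probes is given by its brightest probe, a call means an adjusted p below 0.05 (limma, Benjamini-Hochberg over all probes) with a change over 2-fold, and "rose" or "fell" is written of an adjusted p below 0.05. As bulk arrays of pooled fractions, the data cannot tell fewer cells with an mRNA from less of it in each cell.

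The polysomal arrays at 6 h stood apart in their spike-ins. The offset was -0.48 to -0.21 there and 0.05 to 0.18 on the other arrays, and it depended on brightness: the 5 spike-ins with mean signals of 7.82 to 16.80 were lower by 0.76 to 0.91 on these arrays, the 5 at 18.29 to 19.07 by 0.02 to 0.28. The offset moved the median M-value of all probes, which was 0.49 here, 0.06 with scaling to the 75th percentile, 0.00 (-0.00075) after quantile normalisation and 1.42 with a line fitted through the spike-ins. Values are therefore also given relative to that median, and the part of the spike-ins in the results was not tested beyond these scalings. Between 55.7% and 60.8% of probes were well above background per array, and no spot was saturated. All 8 fibroblast and preadipocyte markers were well above background on all 12 arrays, among them Col1a1, Pdgfra and Dlk1, against 3 of 6 markers of the mature adipocyte, 1 of 4 of the macrophage, 1 of 4 of epithelium and 0 of 3 of endothelium. The summed intensity of the fibroblast markers at 6 h was 183659 to 189323 (non-polysomal) and 1188980 to 1208010 (polysomal), and at 0 h 276361 to 291488 and 755639 to 817749. That of the endothelial markers went from 6.74 to 7.86 in the polysomal pool at 0 h to 32.7 to 36.8 at 6 h, where Cdh5 was well above background on all 3 arrays and on no other, and that of the mature adipocyte markers from 164 to 179.9 up to 224 to 233. Their part in the results was not tested.

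Start-site letters are shown for the 4 members with the highest M-values and for Slc25a45, which had the longest pyrimidine run at its start, because mRNAs of ribosomal proteins, a class that responds to insulin at translation, begin with such a run. Each line is 30 bases, 10 before the annotated start base and 20 from it on, 5′ to 3′ on the gene's strand, from RefSeq (GRCm38.p6). Capitals mark the unbroken run of C and T that contains the start base, so a line without capitals has a purine there.
Slc25a5: cccttacgccggcagctcaccgcctggctg
Slc25a4: acgccgagccggggatataaggagggctgc
Slc25a30: cggagccgTTCCCggcttgggccgcgcccg
Slc25a3: gacattcggCCTCTgtgagccgcaaccttg
Slc25a45: cggCCTCTTCCTTCTTagtttttaaagaaa
The windows lie at chrX:36795587-36795616 (plus strand), chr8:46211043-46211072 (minus), chr14:75787018-75787047 (minus), chr10:91123948-91123977 (minus) and chr19:5877812-5877841 (plus). A start like that of a terminal oligopyrimidine mRNA was searched on the gene's strand as a C within 5 bases of the start base followed by at least 4 further C or T. Slc25a3 and Slc25a45 held it and Slc25a5, Slc25a4 and Slc25a30 did not. The table had 49 promoters of 39 family genes, of which 12 (24.5%) held it, against 18.3% of all 32851 promoters. By gene these were 11 of 39 family genes, and 21.2% of all genes with a promoter. A match describes these letters only, and other start sites in these cells are not in the table.

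Across the family most carriers had an M-value above 0, as did most genes. The median M-value of the 48 members was 0.76, from -0.24 to 2.64, against 0.50 for all genes. It stayed above 0 under each of the 6 scalings compared, between 0.24 and 1.39, but with a line fitted through the spike-ins it lay just below the median of all probes (1.39 against 1.42). In the main scaling 34 members lay above the median of all genes, and 43 were above 0, as were 82.1% of all genes. By replicate number the family median was 0.71, 0.70 and 0.75 and that of all probes 0.41, 0.64 and 0.42. Calls for a rise in M-value were made for 11 members, 22.9%, where 12.3% of all genes were called. None was called lower, against 1.21% of genes, and no member with an M-value below 0 had an unadjusted p below 0.05. Genes well above background on every array of at least 1 group were also fitted alone. There 11 of 39 members and 18.7% of genes were called higher. Without the limit on size, 32 of the 48 members had a higher M-value (background 31.7%) and 0 a lower one (3.59%), while scaling to the 75th percentile gave 19 and 2 and quantile normalisation 17 and 4. The shares of all genes without the limit on size were not computed for the latter scalings. The 32 include Ucp3 (adjusted p = 0.04), which was well above background on no array.

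Not every member was measurable. Of the 48, 36 were well above background on all arrays and 39 on every array of at least 1 group, as were 57.8% of all genes. Slc25a18, Slc25a21, Slc25a31, Slc25a48, Slc25a54 and Ucp3 were well above background on none, and Slc25a41, Slc25a43 and Ucp1 on a few arrays of no complete group. Ucp1 was well above background on 1 polysomal 6 h array, which alone gave it the M-value of 1.28 (adjusted p = 0.28). Slc25a31, the ADP/ATP carrier of the testis, and Ucp3, known from muscle, were thus without a measured level here. Slc25a2, an ornithine carrier, was well above background on 3 non-polysomal and 2 polysomal arrays at 6 h and on none at 0 h. It was at least 1.64-fold and 2.00-fold higher at 6 h, where the polysomal mean includes the array not well above background. The fitted log2 changes, which use the 0 h signals as measured, were 1.77 and 2.81 (adjusted p = 0.004 and 0.0002, limma). In the deposited values the changes of Slc25a2 were 0.26 (adjusted p = 0.08) and 0.94 on the log2 scale, and with normexp background correction 0.17 (adjusted p = 0.10) and 0.67, so the non-polysomal call was lost and the polysomal rise was under 2-fold.

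**Figure D1:**
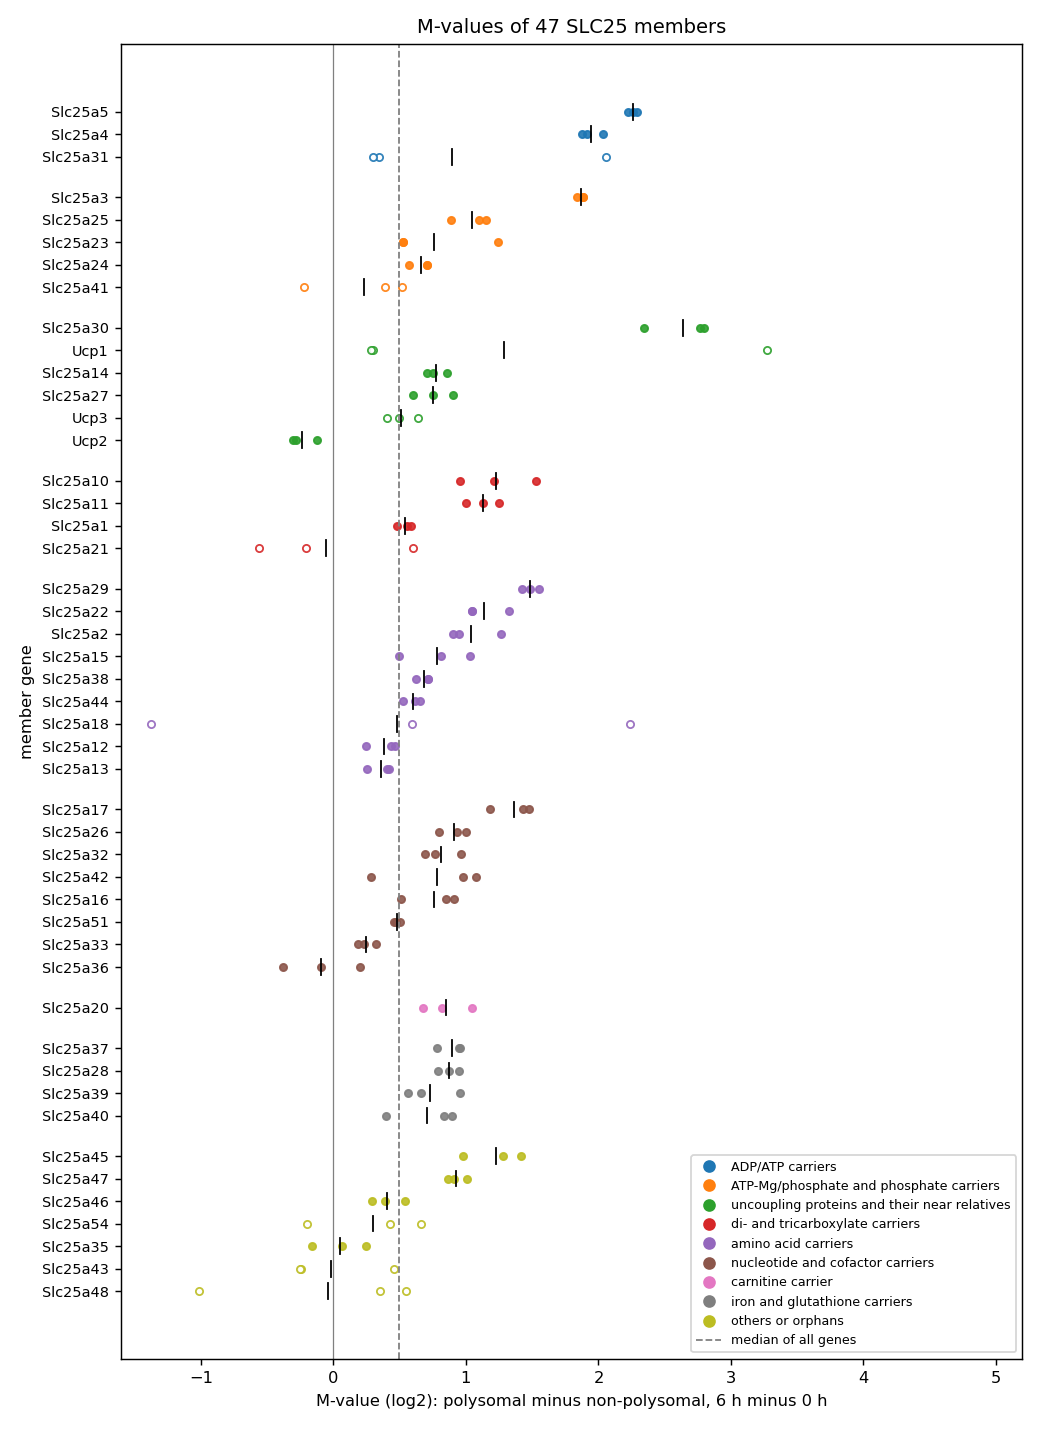
M-value (log2, x axis) of 47 of the 48 members (y axis, grouped by substrate). Points are replicate numbers 1 to 3, the black bar is the fitted value, open points mark the 9 members with no group whose arrays were all well above background, and the dashed line is the median of all genes (0.50). Slc25a30 (2.64), Slc25a5 (2.26), Slc25a4 (1.94) and Slc25a3 (1.87) lie to the right of the others, Ucp2 (-0.24) to the left among the measured members.

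The ADP/ATP carriers Slc25a5 (Ant2) and Slc25a4 (Ant1) fell in the non-polysomal and rose in the polysomal pool. Normalised signals of Slc25a5 (NM_007451) were 14.20, 14.32 and 14.25 in the non-polysomal pool and 15.35, 15.51 and 15.45 in the polysomal pool at 0 h. At 6 h they were 13.23, 13.21 and 13.30 in the non-polysomal pool and 16.67, 16.67 and 16.72 in the polysomal pool. The 4 groups did not overlap, and the gap between the pools widened from 1.18 to 3.44. This was an M-value of 2.26 (SE 0.10, 4.78-fold, adjusted p = 1.19e-06, limma), from a polysomal rise of 1.25 (SE 0.07, adjusted p = 1.45e-07) and a non-polysomal fall of -1.01 (SE 0.07, adjusted p = 1.07e-06). In the main scaling Slc25a5 already lay more in the polysomal pool at 0 h. Calls between the pools at 0 h depended on the scaling, and this difference is not given under the other scalings. The filter that the study states for its up-regulated mRNAs, a list that holds Slc25a5, asks for the opposite order at 0 h.

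Slc25a4 (NM_007450), the form known from heart and skeletal muscle, had the same course. Its signals were 16.12, 16.14 and 16.11 in the non-polysomal pool and 16.99, 17.26 and 17.22 in the polysomal pool at 0 h. At 6 h they were 14.96, 14.89 and 14.92 and 17.87, 17.89 and 17.94. Again no group overlapped another. The M-value was 1.94 (SE 0.11, adjusted p = 2.67e-06), with a polysomal rise of 0.74 (adjusted p = 1.86e-05) and a non-polysomal fall of -1.20 (adjusted p = 8.67e-07). Its other probe gave an M-value of 2.02. Relative to all probes the polysomal change of Slc25a4 was 0.20 and that of Slc25a5 0.71, and after quantile normalisation both polysomal changes turned to -0.41 and -0.02, whereas the non-polysomal falls (-1.37 and -1.19) and the M-values (0.96 and 1.17) kept their signs.

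Slc25a5 and Slc25a4 were set against each other on the same array, where an offset that is equal for all probes cancels and one that depends on brightness does not. The difference of the log2 signals, polysomal minus non-polysomal within each replicate number, was 0.53, 0.46 and 0.40 at 6 h and 0.27, 0.08 and 0.09 at 0 h. All values at 6 h were above all at 0 h, and their means differed by 0.32 (SE 0.08). The SE and the exact p of this M-value comparison rest on the subtraction by number. The polysomal difference changed by 0.51 (SE 0.04) and the non-polysomal one by 0.19 (SE 0.04). In the exact two-sided permutation test of 3 against 3 each of the 3 comparisons gave p = 0.1 (0.1 after adjustment over the 3), the smallest this design allows, so none could pass 0.05. Against the other Slc25a4 probe the differences were 0.23, 0.38 and 0.14, in the same order and with the same p. Quantile normalisation lowered the M-value difference to 0.21 (exact p = 0.2) and the line through the spike-ins raised it to 0.44 (exact p = 0.1).

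Slc25a30 (NM_026232), known as kidney mitochondrial carrier 1 and a near relative of the uncoupling proteins, had the highest M-value of the family. In the non-polysomal pool its signals were 6.42, 6.41 and 6.46 at 0 h and 6.26, 6.24 and 6.12 at 6 h. In the polysomal pool they were 5.50, 5.82 and 5.78 at 0 h and 7.99 to 8.21 at 6 h (8.15, 7.99 and 8.21). In the main scaling it thus lay more in the non-polysomal pool before induction (-0.73, adjusted p = 8.73e-05, limma). At 6 h it lay more in the polysomal one (1.91, adjusted p = 3.02e-08). The M-value was 2.64 (SE 0.14, 6.21-fold, adjusted p = 1.87e-06), with a polysomal rise of 2.41 (SE 0.10, adjusted p = 2.27e-08) and a non-polysomal change of -0.22 (SE 0.10, adjusted p = 0.11), which was -0.27 with scaling to the 75th percentile (adjusted p = 0.008). By replicate number it was 2.80, 2.34 and 2.77.

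The second Slc25a30 probe was dimmer, well above background on 11 arrays, and differed in the non-polysomal pool, where it rose by 1.17 (adjusted p = 0.007). Its polysomal rise was 2.39, close to the first probe's, so its M-value was 1.22 (SE 0.40, adjusted p = 0.04). With the mean of both probes Slc25a30 came after Slc25a5 and Slc25a4 in M-value, and its non-polysomal change was 0.47 (adjusted p = 0.02). AK159732, which the study's list also assigns to Slc25a30, was not matched to a probe and is not analysed here.

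Slc25a5 and Slc25a30 were both on the study's list of up-regulated mRNAs, drawn from these arrays, so their distance from the family is a description. The other 37 members well above background had a median M-value of 0.77, from -0.24 to 1.94. With arrays combined by replicate number, and against the median of the others for each number, Slc25a5 was higher by 1.46 ± 0.08 and Slc25a30 by 1.84 ± 0.18 (SD, n = 3). The labels do not say whether the numbers pair samples. Slc25a4 and Slc25a3 stood between them and the rest, at 1.94 and 1.87, while the next value was 1.49, but Slc25a4 ranked 5 of 39 after quantile normalisation (0.96, as Slc25a29) and 8 with the line through the spike-ins. Slc25a30 and Slc25a5 held the first and second rank among the 39 measured members under 4 of 5 alternative scalings, and exchanged them with normexp background correction.

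**Figure D2:**
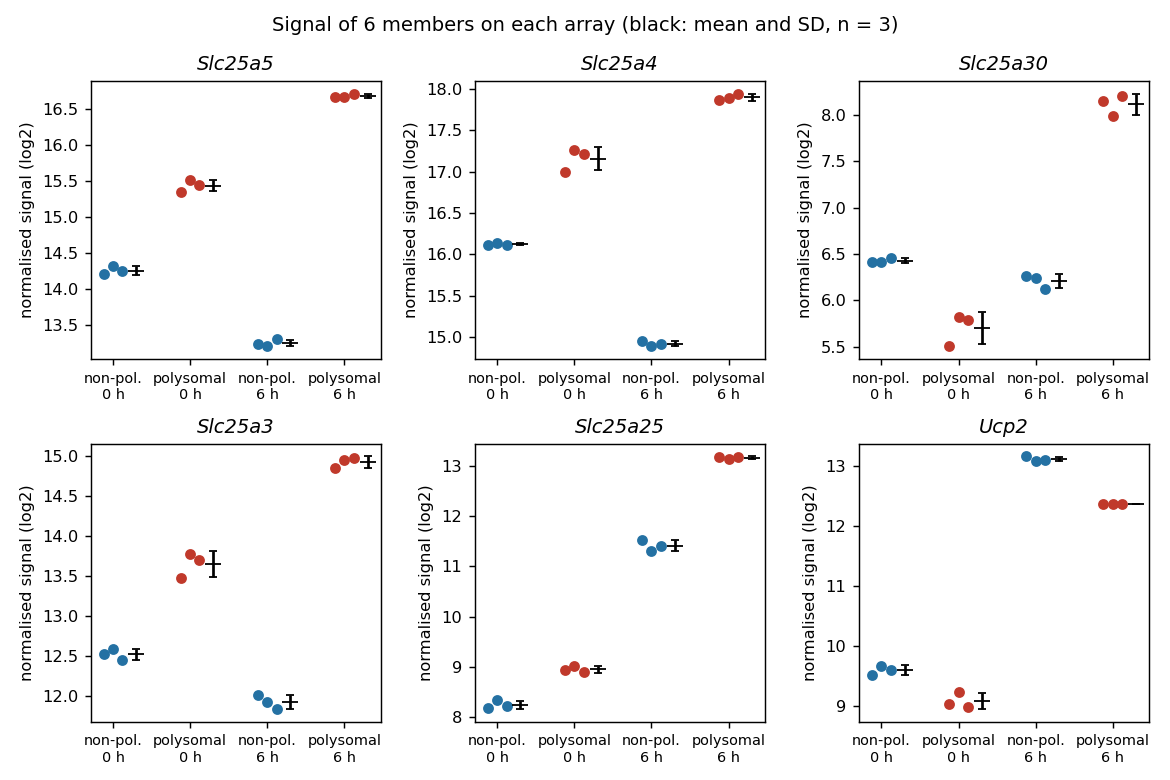
Normalised log2 signal (y axis, a separate range per panel) of 6 members on each array of the 4 groups, with non-polysomal arrays in blue, polysomal arrays in red and the mean and SD (n = 3) in black. Slc25a5, Slc25a4 and Slc25a3 fell in the non-polysomal and rose in the polysomal pool, Slc25a30 rose in the polysomal pool, and Slc25a25 and Ucp2 rose in both; after quantile normalisation the polysomal rises of Slc25a5 and Slc25a4 were not seen.

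The phosphate and ATP-Mg/phosphate carriers took different courses. Slc25a3 (NM_133668), which brings phosphate into the matrix for ATP synthesis, moved like the ADP/ATP carriers. Its signals were 12.52, 12.59 and 12.45 in the non-polysomal and 13.47, 13.77 and 13.70 in the polysomal pool at 0 h. At 6 h they were 12.01, 11.93 and 11.84 and 14.85, 14.95 and 14.98, without overlap between groups. The M-value was 1.87 (SE 0.13, adjusted p = 8.68e-06), the polysomal rise 1.28 and the non-polysomal fall -0.59.

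Slc25a25 (NM_146118), a calcium-regulated ATP-Mg/phosphate carrier, had the largest polysomal rise of the family. It went from 8.93, 9.02 and 8.89 to 13.18, 13.14 and 13.18 in the polysomal pool, a rise of 4.22 (SE 0.08, 18.6-fold, adjusted p = 3.96e-10). In the non-polysomal pool it went from 8.17, 8.33 and 8.22 to 11.53, 11.30 and 11.41, a rise of 3.17 (9.00-fold, adjusted p = 3.68e-09). Both pools gained, and the M-value was 1.05 (adjusted p = 8.92e-05). Its other probes had polysomal rises of 4.16 and 4.17.

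Of the other ATP-Mg/phosphate carriers, Slc25a24 fell in both pools, by -1.08 in the non-polysomal (adjusted p = 1.47e-05) and -0.42 in the polysomal one (adjusted p = 0.007). Slc25a23 was near background, with signals from 3.63 to 4.25 as group means and an M-value of 0.76 (adjusted p = 0.10). Slc25a41 was well above background on 3 of 12 arrays.

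Ucp2 (NM_011671), a carrier of the uncoupling protein group that is expressed in many tissues, rose in both pools, with an M-value near 0. Its signals were 9.52, 9.68 and 9.61 in the non-polysomal and 9.04, 9.24 and 8.99 in the polysomal pool at 0 h. At 6 h they were 13.17, 13.10 and 13.11 and 12.38, 12.38 and 12.37. The rise was 3.52 in the non-polysomal pool (SE 0.08, 11.5-fold, adjusted p = 2.33e-09), the largest of the family there, and 3.29 in the polysomal pool (9.75-fold, adjusted p = 1.35e-09). The M-value was -0.24 (SE 0.11, adjusted p = 0.12), the lowest of the measured members, and negative by every replicate number (-0.31, -0.28 and -0.12). Relative to all probes it was -0.72, and with scaling to the 75th percentile its value of -0.66 passed the test (adjusted p = 0.0005). The other Ucp2 probes gave M-values of 0.07 and -0.07. Ucp2 served as a normaliser in the study's PCR.

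Slc25a27, known as Ucp4 of the nervous system, had the largest falls of the family in the main scaling. Its signals were 5.83, 5.94 and 5.99 in the non-polysomal and 4.54, 4.60 and 4.78 in the polysomal pool at 0 h. At 6 h they were 3.66, 3.65 and 3.22 in the non-polysomal pool, where 2 of 3 arrays were well above background, and 3.27, 3.07 and 2.60 in the polysomal pool, where none was. The non-polysomal fall was -2.41 (SE 0.18, adjusted p = 1.93e-06), and the polysomal signal was at least 2.17-fold lower at 6 h. The fitted polysomal change, which uses the 6 h signals as measured, was -1.66 (adjusted p = 1.94e-05, limma). The polysomal change was -0.19 in the deposited values (adjusted p = 0.09) and 0.08 with normexp background correction (adjusted p = 0.40), so this fall and its bound did not hold there. The non-polysomal fall was -1.23 and -0.77 in these. The latter was smaller than the fall of Slc25a4, which lay between -1.37 and -1.15 over the alternatives. Slc25a14, known as Ucp5, rose in the polysomal pool by 0.87 (adjusted p = 6.4e-06), with a non-polysomal change of 0.10 (adjusted p = 0.40) and an M-value of 0.77 (adjusted p = 0.0006).

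Among the carriers of di- and tricarboxylates, Slc25a10 and Slc25a11 were called higher in M-value and the citrate carrier Slc25a1 was not. Slc25a10, the dicarboxylate carrier, had an M-value of 1.23 (SE 0.14, adjusted p = 0.0001), from a polysomal rise of 0.57 and a non-polysomal fall of -0.66. Slc25a11, the 2-oxoglutarate carrier of the malate-aspartate shuttle, had an M-value of 1.13 (SE 0.12, adjusted p = 8.06e-05), from a polysomal change of 0.03 (adjusted p = 0.77) and a non-polysomal fall of -1.10. For both, the sign of the polysomal change depended on the scaling, and quantile normalisation gave -0.18 and -1.19. The M-value of Slc25a10 was then 0.59 (adjusted p = 0.003) and that of Slc25a11 was 0.08 (adjusted p = 0.49), which did not pass the test. Slc25a1 rose by 0.46 in the polysomal pool (adjusted p = 0.002), with a non-polysomal change of -0.08 (adjusted p = 0.63). Its M-value was 0.54 (SE 0.13, adjusted p = 0.01), near the median of all genes, and -0.20 after quantile normalisation, where its polysomal change was -0.46.

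Of the 9 amino acid carriers on the array, 6 were called higher in the polysomal pool and 1 lower, where 18.5% and 4.47% of all genes were called. Slc25a29 (NM_181328), which carries basic amino acids, came next in M-value after Slc25a3. Its signals went from 9.60, 9.70 and 9.47 to 11.80, 11.85 and 11.83 in the polysomal pool, and from 8.63, 8.64 and 8.60 to 9.41, 9.31 and 9.40 in the non-polysomal pool. The M-value was 1.49 (SE 0.10, adjusted p = 6.67e-06) and its other probe gave 0.87. The glutamate carrier Slc25a22 rose by 2.17 in the polysomal and 1.03 in the non-polysomal pool (M-value 1.14, adjusted p = 5.11e-05). Slc25a38, which imports glycine for haem synthesis, rose by 1.66 and 0.98, the branched-chain amino acid carrier Slc25a44 by 1.65 and 1.06, and the ornithine carrier Slc25a15 by 1.35 and 0.57.

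The aspartate/glutamate carriers of the malate-aspartate shuttle fell in both pools. Slc25a13 (citrin, NM_015829) went from 9.28, 9.54 and 9.53 to 8.33, 8.28 and 8.38 in the polysomal pool and from 6.89, 7.12 and 6.82 to 5.52, 5.46 and 5.42 in the non-polysomal pool. The falls were -1.12 (adjusted p = 5.56e-06) and -1.48 (adjusted p = 1.19e-06), and no group overlapped another. The M-value of 0.36 did not pass the test (adjusted p = 0.08). Slc25a12 (aralar) fell by -0.55 and -0.93 (adjusted p = 0.0002 and 6.4e-06).

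Nucleotide and cofactor carriers held several rises in both pools. Slc25a32, linked to folate and FAD transport, went from 8.53, 8.85 and 8.94 to 11.68, 11.62 and 11.82 in the polysomal pool and from 7.24, 7.20 and 7.22 to 9.42, 9.28 and 9.32 in the non-polysomal pool. Its rises were 2.93 (SE 0.11, adjusted p = 1.08e-08) and 2.12 (SE 0.11, adjusted p = 1.69e-07). Slc25a33 and Slc25a36 are the pyrimidine nucleotide carriers and had some of the lowest M-values.

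Slc25a33 went from 10.20, 10.24 and 10.19 to 12.04, 11.88 and 11.94 in the non-polysomal and from 9.83, 10.03 and 9.93 to 11.89, 11.85 and 12.01 in the polysomal pool. The rises were 1.74 and 1.99, with an M-value of 0.25 (SE 0.11, adjusted p = 0.11). Slc25a36 went from 7.58, 7.50 and 7.39 to 8.95, 8.89 and 8.87 in the non-polysomal and from 5.78, 6.24 and 6.08 to 7.34, 7.26 and 7.47 in the polysomal pool. Its M-value was -0.09 (SE 0.17, adjusted p = 0.68), with replicate numbers on both sides of 0 (0.20, -0.38 and -0.09), and 0.64 with the line through the spike-ins.

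Slc25a17, a peroxisomal carrier of CoA and related cofactors, had the highest M-value of this group (1.36, SE 0.18, adjusted p = 0.0003), and its other probes gave 1.27 and 1.50. Slc25a42, the CoA carrier, was dim, at 4.22, 4.76 and 4.41 in the non-polysomal pool at 0 h and 3.54, 3.37 and 2.78 at 6 h, where 2 of 3 arrays were well above background. That fall was -1.24 (SE 0.19, adjusted p = 0.0004). In the polysomal pool it was 4.58, 4.58 and 4.69 at 0 h and 4.18, 4.17 and 4.14 at 6 h, a change of -0.46 that did not pass the test (adjusted p = 0.06). Other members of this group were the S-adenosylmethionine carrier Slc25a26 (M-value 0.91), Slc25a16 (0.76) and the NAD carrier Slc25a51 (0.48).

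The 4 carriers of iron and glutathione passed the test in M-value without reaching 2-fold, at 0.71 to 0.89. Slc25a39 and Slc25a40 did not pass it with scaling to the 75th percentile (adjusted p = 0.0525 and 0.20) or after quantile normalisation (0.10 and 0.20). Mitoferrin-1 (Slc25a37) rose by 2.79 in the polysomal and 1.89 in the non-polysomal pool (adjusted p = 1.02e-08 and 2.31e-07). Mitoferrin-2 (Slc25a28) rose by 1.66 and 0.79, and the glutathione carrier Slc25a39 by 1.44 and 0.71. The carnitine/acylcarnitine carrier Slc25a20, which brings fatty acids in for oxidation, had an M-value of 0.85 (SE 0.13, adjusted p = 0.0006), with a polysomal change of 0.35 and a non-polysomal change of -0.50.

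Members with no settled substrate had M-values from -0.04 to 1.23, with a median of 0.30 over the 7 on the array. That lowest value and that median are those of Slc25a48 and Slc25a54, which were well above background on no array. The 4 measured members of this group had M-values from 0.05 to 1.23. Slc25a45 had an M-value of 1.23 (SE 0.12, adjusted p = 4.83e-05), from 0.56 in the polysomal and -0.67 in the non-polysomal pool. Slc25a47 rose by 2.73 and 1.80. Slc25a35 went from 6.15, 6.26 and 6.28 to 5.67, 5.48 and 5.67 in the polysomal and from 5.60, 5.66 and 5.55 to 5.28, 4.63 and 4.88 in the non-polysomal pool. It fell in both by less than 2-fold, -0.62 and -0.67 (adjusted p = 0.004 and 0.003), and its M-value was 0.05 (SE 0.20, adjusted p = 0.86). Slc25a46, which acts at the outer membrane, had an M-value of 0.41 (adjusted p = 0.0505).

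Counted by pool, the polysomal signal was called higher at 6 h for 20 members (background 18.5%) and lower for 2 (4.47%), Slc25a27 and Slc25a13. The non-polysomal signal was called higher for 10 (7.50%) and lower for 7 (7.83%). Without the limit on size these counts were 32 (50.8%) and 5 (10.6%) in the polysomal, and 17 (19.1%) and 15 (18.9%) in the non-polysomal pool. Shares of the 48 members called past 2-fold were thus 41.7% and 20.8% for calls upward and 4.17% and 14.6% for calls downward. These backgrounds cover all genes, of which 57.8% were well above background on every array of at least 1 group, against 39 of the 48 members. The polysomal rises counted without the limit on size include Ucp3 and Slc25a54, which were well above background on no array. Relative to the median of all probes, 15 members had a polysomal change over 1, as did 14 after quantile normalisation, 13 in the deposited values, 12 with normexp background correction and 9 with the line through the spike-ins. The share of all genes past this limit was not computed, so these counts cannot tell the family from other genes.

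Taking both pools at an adjusted p below 0.05, 17 members rose in both (17.3% of all genes did), and 5 fell in both (8.52%). A rise in the polysomal with a fall in the non-polysomal pool was found for 6 members, Slc25a5, Slc25a4, Slc25a3, Slc25a10, Slc25a45 and Slc25a20, against 4.7% of all genes. The opposite course was found for 0 members and 0.263% of genes. Of the 6, only Slc25a3 and Slc25a45 kept a polysomal rise past the test after quantile normalisation (0.28 and 0.20, adjusted p = 0.002 and 0.04), and with scaling to the 75th percentile Slc25a5, Slc25a4 and Slc25a3 did (0.77, 0.26 and 0.80).

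**Figure D3:**
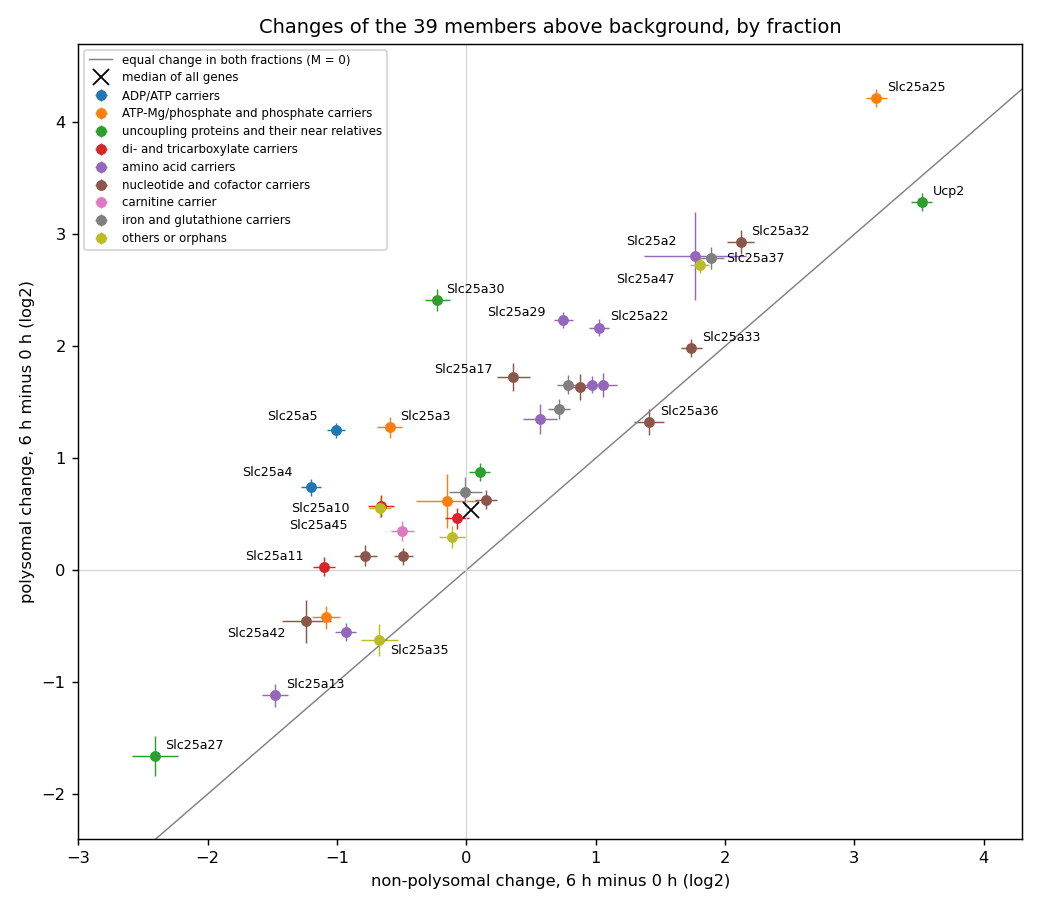
Change from 0 h to 6 h in the non-polysomal (x axis) and the polysomal pool (y axis), both log2, of the 39 members well above background on every array of at least 1 group, coloured by substrate, with standard errors; the grey line marks equal change and the cross the median of all genes. Slc25a25 (3.17, 4.22) and Ucp2 (3.52, 3.29) lie at the upper right, Slc25a27 at the lower left, where its polysomal signal at 6 h was not well above background (nor was Slc25a2 at 0 h), and Slc25a5 (-1.01, 1.25) and Slc25a4 (-1.20, 0.74) at the upper left; after quantile normalisation the polysomal changes of the last pair were -0.02 and -0.41.

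The pools also differed between members at rest. At 0 h, 15 members were called higher in the polysomal pool (background 24.0%) and 6 lower (10.7%), the latter being Slc25a47, Slc25a37, Slc25a27, Slc25a39, Slc25a51 and Slc25a36. Slc25a13 (2.51) and Slc25a20 (2.43) leaned most towards polysomes and Slc25a47 (-2.19) and Slc25a39 (-2.07) most away from them. At 6 h the counts were 20 higher (34.3%) and 4 lower (6.88%), Slc25a47, Slc25a39, Slc25a51 and Slc25a36, at -1.26, -1.35, -1.36 and -1.54. With scaling to the 75th percentile the counts were 2 higher and 17 lower at 0 h and 11 and 14 at 6 h, so the split between the directions rested on the scaling. Shares of all genes under that scaling were not computed.

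Other mitochondrial genes were counted from lists of known function, in the main scaling only. In the order given below, 12 of 12, 12 of 13 and 7 of 7 list genes were well above background on all arrays. The backgrounds cover all genes, of which 57.8% were well above background on every array of at least 1 group. With such genes fitted alone, 18.7% of them were called higher in M-value. Of 12 components of the machinery that imports carriers into the membrane, 11 were called higher in the polysomal pool (18.5% of all genes), 6 in the non-polysomal pool (7.50%) and 1, the receptor Tomm70a, in M-value (1.60, against 12.3% of all genes called). The small chaperones Timm9 (M-value 0.11) and Timm8a1 (0.20) rose in both pools. Of 13 other transporters and porins, 5 were called higher in M-value, with the same background: the porins Vdac1 (1.26) and Vdac2 (1.49), the carrier homologue Mtch1 (1.31), the calcium uniporter Mcu (1.40) and the sideroflexin Sfxn3 (1.19). Of 7 regulators of mitochondrial biogenesis, 1 was called higher in M-value (Esrra, 1.13), and the coactivator Ppargc1a fell by -4.10 in the polysomal and -3.98 in the non-polysomal pool. Relative to the median of all probes, the M-value of Tomm70a was 1.12 and that of Esrra 0.64. Those of Vdac1, Vdac2, Mtch1, Mcu and Sfxn3 were 0.78, 0.999, 0.83, 0.92 and 0.70. The list medians of the M-value were 0.63, 0.62 and 0.47, against 0.76 in the carrier family and 0.50 over all genes, with no test of the lists.

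**Figure D4:**
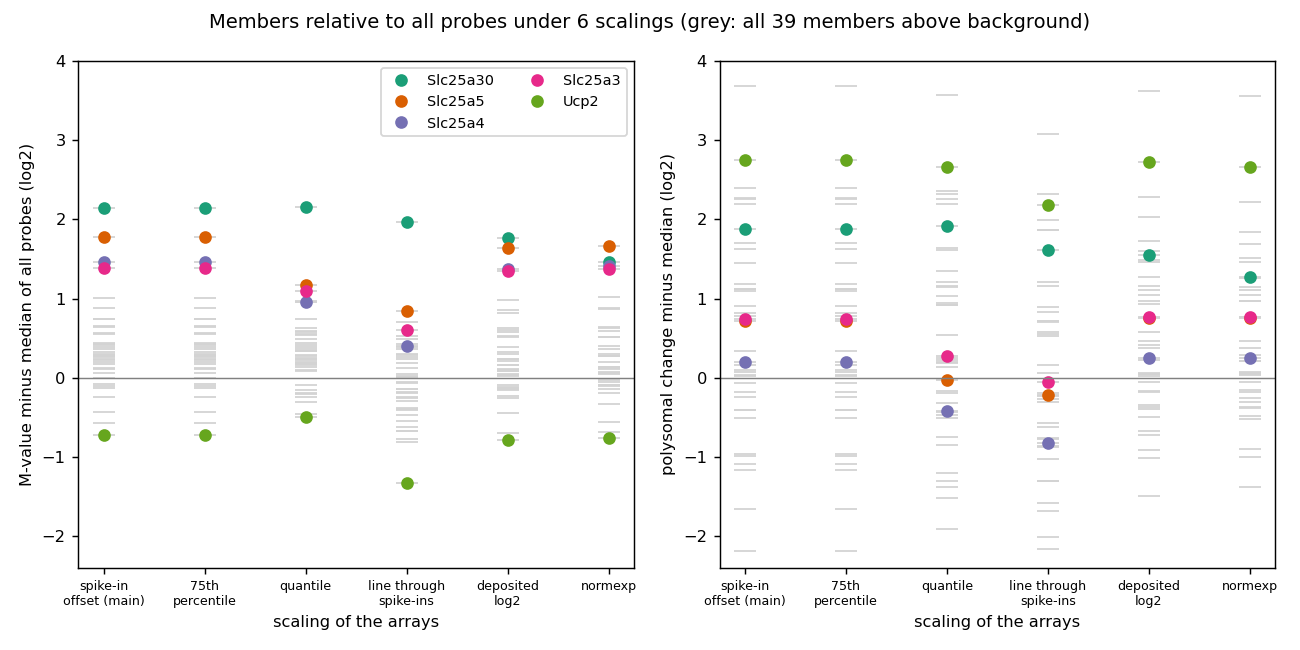
M-value (left) and polysomal change (right) relative to the median of all probes (y axes, log2) under 6 scalings of the arrays (x axis), with the 39 measured members as grey dashes and 5 of them in colour. The M-values of Slc25a30, Slc25a5, Slc25a4 and Slc25a3 lie above 0 in each scaling, between 0.40 and 2.16, while the polysomal changes of Slc25a5 and Slc25a4 fall below 0 after quantile normalisation and with the straight line, and that of Slc25a3 with the straight line.

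Relative to all probes, the M-value of Slc25a30 lay between 1.46 and 2.16 over the 6 scalings, that of Slc25a5 between 0.84 and 1.77, that of Slc25a4 between 0.40 and 1.46 and that of Slc25a3 between 0.60 and 1.38. Ucp2 stayed below 0, from -1.33 to -0.50. The plot of the scalings shows that the polysomal change of Slc25a30 kept its sign, from 1.27 to 1.91 relative to all probes, and that those of Slc25a5 (-0.22 to 0.76), Slc25a4 (-0.82 to 0.25) and Slc25a3 (-0.06 to 0.77) did not.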

How the data were processed

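RNA of 12 samples (0 h and 6 h, non-polysomal and polysomal, 3 replicates each) was hybridised to single-colour arrays. The authors scanned them and deposited Feature Extraction (10.7.1.1) files of spot intensity, background-subtracted but not normalised between arrays, and log2 values per probe, which were used as an alternative. The authors' PCR, blots and gradient profiles were not analysed here.

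The processed signal was taken to log2, outlier spots were left out (484 values were missing), spots of a probe were averaged, and per array the mean deviation of 10 spike-in transcripts (32 spots each) was subtracted. The study's methods name the spike-ins as the basis of normalisation without a formula, so this offset was chosen here. A probe was named through the RefSeq genes (GRCm38.p6), where 18754 of 32839 accessions had 1 symbol. The 4 groups were fitted with limma 3.58.1 (lmFit and eBayes) in R 4.3.3 with the data.table package (version 1.17.8) on 41174 probes, with Benjamini-Hochberg adjustment over all of them, after tests on simulated data. Comparisons were the M-value, the change in each pool and the pool difference at each time, called at an adjusted p below 0.05 and a log2 change over 1. Normexp (offset 50) used median signals, since the files hold no mean-signal column.

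The number of slides, 3, was taken from the replicate numbers. Same-numbered arrays had correlations of deviations from group means of -0.097 to 0.42, over 0.1 in 4 of 18 pairs, so the main fit did not take the numbers as pairs. The pools were subtracted within a number for the Slc25a5 and Slc25a4 M-value difference and for M-values given by replicate number.

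Genes were named by rule: Slc25a5, Slc25a30, Slc25a4, the 5 highest and 5 lowest M-values among measured members, and the 3 largest rises and falls per pool are given per array, the others by summary. The family, lists and tests were chosen with earlier results of these data known. The values of 1 member are not reported here, though it stays in the counts and medians. The number of arrays limits the precision.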

Additional observations from a re-analysis of the deposited data

Results flagged for a closer look

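In 6 members the polysomal and non-polysomal changes from 0 h to 6 h had opposite signs, each past an adjusted p of 0.05 (limma), and the difference between the pools was tested by the M-value. These M-values were 2.26 for Slc25a5, 1.94 for Slc25a4, 1.87 for Slc25a3, 1.23 for Slc25a10, 1.23 for Slc25a45 and 0.85 for Slc25a20, with adjusted p from 1.19e-06 to 0.0006. After quantile normalisation the polysomal changes of Slc25a5, Slc25a4, Slc25a10 and Slc25a20 were below 0. In each group there were 3 arrays, too few for a test of single outlying arrays.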

How the results depend on the processing

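The rise in M-value was called for 11 members, for 5 with scaling to the 75th percentile, 3 after quantile normalisation and 36 with a line fitted through the spike-ins, and for 10 to 12 with each array left out. Of all genes, 12.3%, 3.89%, 3.16% and 64.2% were called in the same order, and 10.8% to 13.1% with each array left out. For the pool counts that follow, shares of all genes were computed in the main scaling only. Polysomal calls upward were 20 and 33 with the line (20 to 21 without an array). Those downward were 2, and 4 with the 75th percentile, 5 quantile, 0 line, 1 deposited values and 0 normexp. Non-polysomal calls downward were 7 and 3 with normexp (6 to 7 without an array), and those upward 10 (9 to 11). Calls of the polysomal over the non-polysomal pool at 0 h were 15 upward, 2 with the 75th percentile and 5 quantile, and 6 downward, 17 and 13. At 6 h they were 20 upward, 11, 11 and 36 with the line, and 4 downward, 14, 11 and 1 with the line. The M-value difference of Slc25a5 and Slc25a4, 0.32, was 0.21 quantile (p = 0.2, exact), 0.44 with the line (p = 0.1, exact) and 0.28 to 0.38 with an array left out. With the replicate number as a block 11 members were called higher in M-value as before, 29 rather than 32 without the limit on size, and no other count of calls changed.

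Named genes turned sign as follows, where either value passed the test. Quantile normalisation gave M-values of -0.20 (Slc25a1), -0.30 (Slc25a12), -0.0896 (Slc25a24) and -0.15 (Slc25a33), and polysomal changes of -0.46 (Slc25a1), -0.18 (Slc25a10), -1.19 (Slc25a11), -0.16 (Slc25a20), -0.31 (Slc25a26), -0.41 (Slc25a4), -0.50 (Slc25a46), -0.0217 (Slc25a5) and -0.0131 (Ucp3). The 75th percentile gave an M-value of -0.0429 (Slc25a12) and polysomal changes of -0.0110 (Slc25a1), -0.45 (Slc25a11), -0.13 (Slc25a20), -0.34 (Slc25a26) and -0.18 (Slc25a46). The line gave M-values of 1.20 (Slc25a21) and 0.64 (Slc25a36) and a polysomal change of 0.12 (Slc25a35). The deposited values gave an M-value of 0.46 (Slc25a21). Normexp gave M-values of 0.41 (Slc25a21), 0.44 (Slc25a43) and 0.33 (Slc25a48), and polysomal changes of 0.0785 (Slc25a27), 0.21 (Slc25a42) and 0.43 (Slc25a43). The mean of the probes gave a non-polysomal change of 0.47 (Slc25a30). The scalings change the offsets of the arrays, among them those of the polysomal arrays at 6 h. Normexp also changes the background correction, and the mean of the probes changes how probes are combined. The cause of these turns was not tested. Keeping outlier spots and leaving out dim probes moved no count of calls by over 1.5 times. Signal over background limits the 9 members without a measured group.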
